A study of Mus musculus with 2 samples.

Results

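Cytochrome P450 genes of families 1 to 4 were read in liver RNA of apolipoprotein E-deficient male mice, from a pool given squalene and a control pool. All genes with a platform symbol of the form Cyp, a family number from 1 to 4, a subfamily letter and a member number were taken. Each needed a probe set annotated to that gene alone. The rule found 48 genes of 12393 named on the array, in 16 subfamilies.

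Cytochrome P450 enzymes are heme proteins of the endoplasmic reticulum that insert 1 atom of oxygen into their substrates, with electrons from P450 oxidoreductase and cytochrome b5. In liver, families 1 to 3 are known chiefly for drugs, toxins and steroids, and family 4 for hydroxylation of fatty acids at the end of the chain. Many are induced by nuclear receptors, CAR for Cyp2b, PXR for Cyp3a, PPAR alpha for Cyp4a, or by the aryl hydrocarbon receptor for Cyp1a.

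The squalene pool came from mice whose 1% glycerol drink held squalene to give 1 g per kg each day, with chow, for 10 weeks. The control pool drank 1% glycerol with chow for 10 weeks. Both pools are labelled apolipoprotein E-deficient, male, of a C57BL/6J/ OLA129 background and 2 months old. RNA of each group was pooled and read on 1 array, so the comparison has no replicates and no test, and how many animals a pool held is not stated in the labels. Values are MAS5 signals on a linear scale, and ratios are log2 of squalene over control.

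Signals were scaled alike, and the array median was 41.3 in the squalene pool and 39.9 in the control pool. A gene was called measured when its brightest probe set reached the median of an array in 1 pool or both, and well read when it did so in both. Of the 48 P450 genes, 34 were measured, 31 were well read and 14 lay below the median in both pools. All 18 spike-in probe sets for hybridization read lower with squalene (median log2 ratio -0.26), so scaling to them would raise every ratio by 0.26. Of 10 hepatocyte markers 8 were named on the array, among them Alb, Ttr and Apoa1, and all 8 were well read. None of the 4 cholangiocyte or 4 kidney markers named there reached the median in either pool. The symbol Apoe read 130.6 in the squalene pool and 141.0 in the control pool on 1 probe set, which is no check of the deletion, as the labels do not say which part of the gene is missing.

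Of the 31 well-read P450 genes 26 lay within 0.5 of 0, 14 of them within 0.2, and 5 differed by more than 0.5. Of all 6459 well-read genes 5542 lay within 0.5 of 0, 3126 of them within 0.2. Among the 31 well-read genes the median log2 ratio was -0.08 and the range -0.96 to 0.75, beside a median of 0.01 over all 6459 well-read genes. Beyond a log2 ratio of 0.5, 3 of the 31 (9.68%) were higher in the squalene pool, beside 7.85% of all well-read genes. In the other direction 2 of the 31 (6.45%) were lower, beside 6.35%. Both shares stood near those of all well-read genes. Over the 34 measured genes 6 were higher and 2 lower, beside 11.3% and 10.6% of all measured genes, but 3 of the 6 had passed the filter through the squalene pool alone. Above 0 lay 10 of the 31, beside 51.2% of all well-read genes, and 21 lay below it. That balance depended on the scaling, with 15 below 0 after quantile normalization, 17 after loess and 6 after scaling to the spike-ins. No P450 gene that was measured passed the submitters' screening limit of 1.5, beside 1.21% of all measured genes above it and 1.33% below it.

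**Figure D1:**
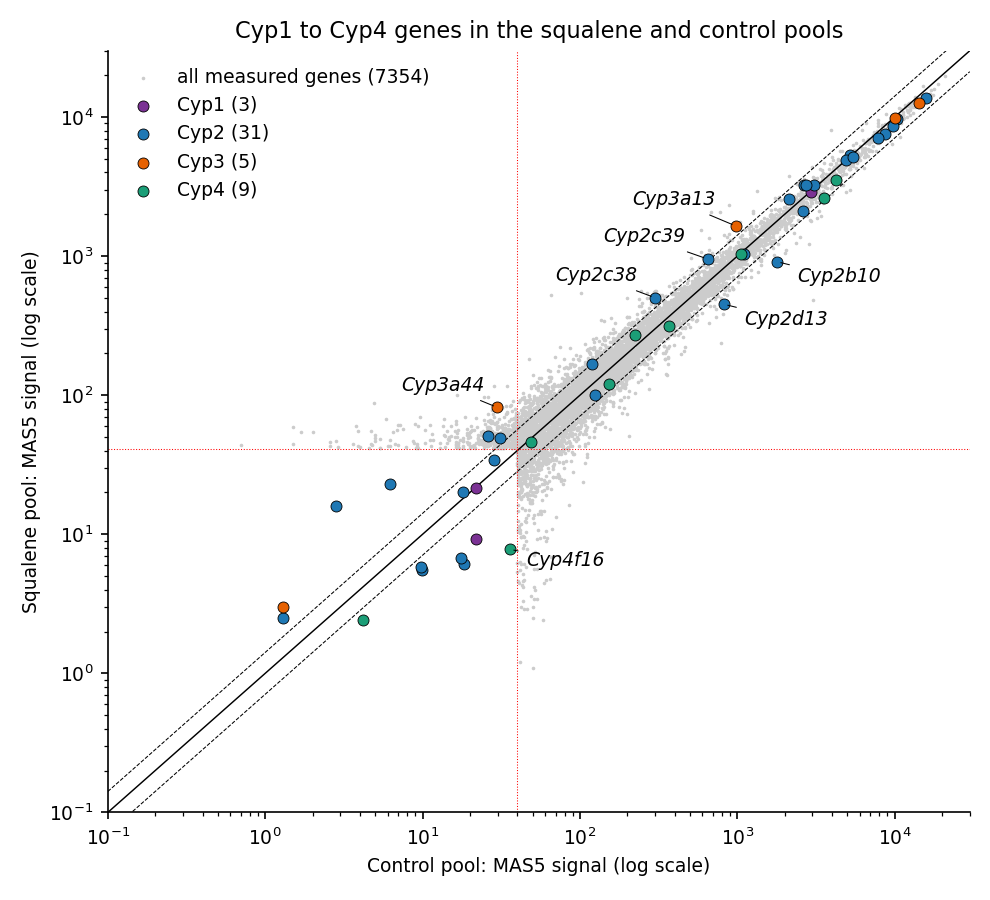
MAS5 signal of the squalene pool (vertical, log scale) against the control pool (horizontal, log scale) for the 48 P450 genes, coloured by family, with all 7354 measured genes in grey. The solid line is equality, dashed lines a log2 ratio of 0.5 either way and dotted lines the array medians. Most bright P450 genes lie between the dashed lines, with Cyp2b10 and Cyp2d13 below them and Cyp3a13, Cyp2c38 and Cyp2c39 above them.

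The 5 P450 genes beyond 0.5 were all bright. By mean log2 signal over both pools, 26 of the 31 fell in the brightest tertile of measured genes, a split added after the values were seen. Those 26 held all 5 genes beyond 0.5, with 3 higher (11.5%) and 2 lower (7.69%). Of all 2452 well-read genes in that tertile, 3.51% were higher and 3.3% lower. Within 0.2 of 0 lay 13 of the 26 P450 genes (50.0%), beside 61.4% of all genes in the tertile. Whether P450 genes differ from others of the same brightness was not tested.

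The gene with the lowest ratio among well-read members was Cyp2b10, the classic target of the receptor CAR and the main phenobarbital-inducible P450 of mouse liver. Its brightest probe set read 913.1 in the squalene pool and 1782.2 in the control pool, a 1.95-fold lower signal (log2 ratio -0.96). A second probe set read 685.2 and 1254.5 in the same order (-0.87). The last, the only one with the plain suffix, read 505.2 in the squalene pool and 1226.3 in the control pool (-1.28). All 3 probe sets were thus lower with squalene. Of 6459 well-read genes, 47 had a lower ratio than the brightest Cyp2b10 probe set. Over all genes with several measured probe sets, ratios of probe sets of the same gene differed with an SD of 0.27 in the brightest tertile of signal, 0.42 in the middle one and 0.80 in the dimmest.

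The other well-read P450 genes with several probe sets also gave ratios of the same sign on each. Cyp2d13, which RefSeq lists as a transcribed pseudogene, read 451.3 in the squalene pool and 820.0 in the control pool (-0.86), and its other probe set 232.0 and 367.5 (-0.66). Cyp4v3, the mouse counterpart of the human fatty acid hydroxylase CYP4V2, read 2614.8 in the squalene pool and 3579.3 in the control pool (-0.45), and 1318.3 and 1538.2 on its other probe set (-0.22). Smaller ratios were seen for Cyp2d22 (-0.09 and -0.20) and for Cyp2j5, an arachidonic acid epoxygenase of liver and kidney (0.25 and 0.12). For all 5 well-read members with several probe sets, every probe set lay on the same side of 0. With spike-in scaling the second Cyp4v3 probe set and both of Cyp2d22 would lie above 0.

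**Figure D2:**
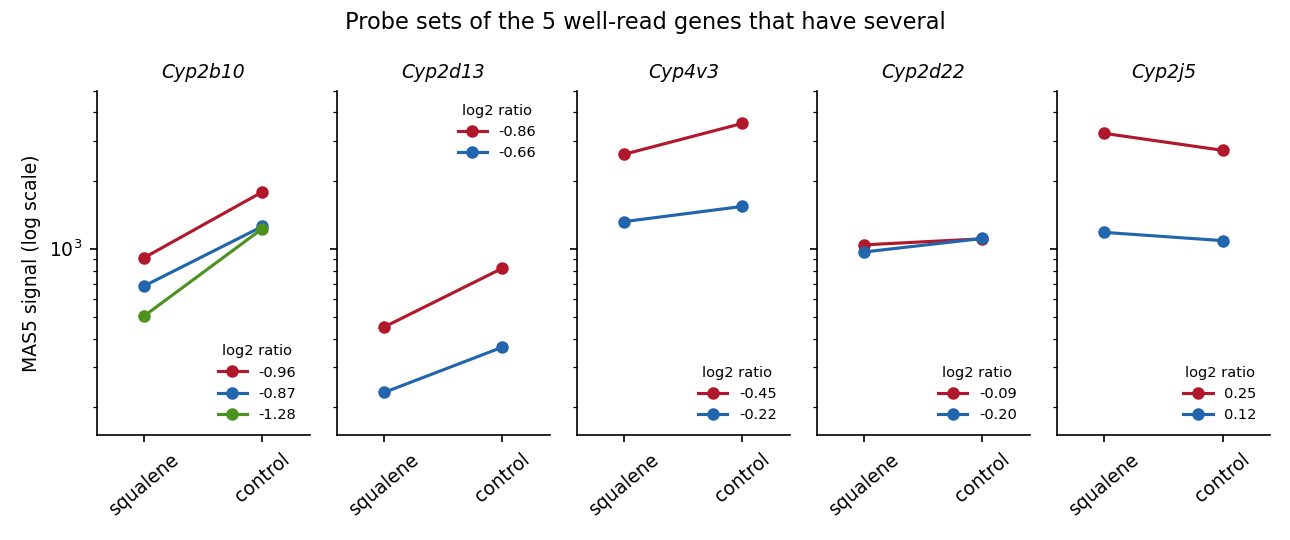
MAS5 signal (log scale) of each probe set in the squalene pool (left) and the control pool (right) for the 5 well-read genes with several probe sets, with each log2 ratio in the legend. The 3 Cyp2b10 and 2 Cyp2d13 probe sets are all lower in the squalene pool.

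Cyp2b10 lies in a cluster of Cyp2 genes on chromosome 7, where its well-read neighbours lay nearer 0 or above it. Cyp2b9 and Cyp2b13, both known as female-biased in mouse liver, read 20.2 and 2.5 in the squalene pool and 18.0 and 1.3 in the control pool, below the median on both arrays. Cyp2b19, known from mouse skin, was also below it, at 6.1 in the squalene pool and 18.4 in the control pool (-1.59). Cyp2a12, a steroid and bile acid hydroxylase of mouse liver, read 5372.4 in the squalene pool and 5227.2 in the control pool (0.04). Cyp2f2, which oxidises naphthalene, read 7109.4 and 7831.9 in that order (-0.14). A probe set annotated to both Cyp2a5, a coumarin hydroxylase, and the steroid hydroxylase gene Cyp2a4 was 1.65-fold higher with squalene, reading 6604.3 in that pool and 4004.9 in the control pool (0.72). It cannot tell these near-identical genes apart and is not counted among the 48.

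The upstream sequences of these neighbours are shown because Cyp2b10 and the shared Cyp2a5 and Cyp2a4 probe set had ratios of opposite sign while their promoters share a short motif. Each is the 250 bases before the RefSeq start in GRCm38.p6. Cyp2b10 is at chr7:25897408-25897657, plus strand, Cyp2a5 at chr7:26835089-26835338, plus strand, and Cyp2a4 at chr7:26306942-26307191, plus strand. Capitals mark TTGCATAA, the reverse complement of TTATGCAA, a form bound by PAR bZIP and C/EBP factors.
Cyp2b10: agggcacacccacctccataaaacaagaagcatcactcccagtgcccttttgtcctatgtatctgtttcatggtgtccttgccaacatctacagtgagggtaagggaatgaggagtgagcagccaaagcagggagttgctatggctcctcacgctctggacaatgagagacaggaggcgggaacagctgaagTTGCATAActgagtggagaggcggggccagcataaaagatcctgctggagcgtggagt
Cyp2a5: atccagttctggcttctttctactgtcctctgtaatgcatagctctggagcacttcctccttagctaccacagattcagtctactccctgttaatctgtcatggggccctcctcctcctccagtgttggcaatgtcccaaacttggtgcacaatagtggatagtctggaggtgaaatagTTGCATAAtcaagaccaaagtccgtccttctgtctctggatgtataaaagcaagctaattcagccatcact
Cyp2a4: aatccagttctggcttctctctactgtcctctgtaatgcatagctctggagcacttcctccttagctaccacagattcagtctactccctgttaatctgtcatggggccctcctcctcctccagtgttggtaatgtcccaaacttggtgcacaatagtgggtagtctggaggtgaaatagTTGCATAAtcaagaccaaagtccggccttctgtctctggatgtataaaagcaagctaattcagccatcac
The motif was picked after these sequences had been read. Its first base lies 58 bases before the start in Cyp2b10, 71 in Cyp2a5 and 70 in Cyp2a4. Searched on both strands, TTATGCAA was found in the same window of 0.829% of all 27025 genes with a promoter. It was found in 3 of the 39 P450 genes with one (7.69%), Cyp2b10, Cyp2b19 and Cyp4f14. Cyp4f14, a leukotriene and fatty acid hydroxylase, read 313.8 in the squalene pool and 369.5 in the control pool (-0.24). The Cyp2a5 and Cyp2a4 windows were 97.6% identical over their alignment, and Cyp2b10 and Cyp2a5 were 44.8% identical. Holding the motif thus went with ratios of both signs, and a match is a description, not a site.

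Cyp2c genes lay on both sides of 0, and 2 of them were higher beyond 0.5. Their 8 well-read genes had a median log2 ratio of 0.18 and a range of -0.31 to 0.74. Above 0 lay 5 of the 8 (62.5%), beside 51.2% of all well-read genes. Cyp2c38, an arachidonic acid epoxygenase, was 1.67-fold higher with squalene, reading 501.9 in that pool and 300.6 in the control pool (0.74). Cyp2c39, which hydroxylates retinoic acid, was 1.47-fold higher, at 953.8 in the squalene pool and 648.2 in the control pool (0.56). Both rest on 1 probe set. Among the epoxygenases Cyp2c50 read 3273.8 in the squalene pool and 2664.9 in the control pool (0.30), and Cyp2c54 read 3260.3 and 3071.1 in that order (0.09). Cyp2c68 stood at 0.27 with signals of 2581.5 and 2139.9. The other well-read genes were at or below 0. Cyp2c29 read 9767.1 in the squalene pool and 10332.1 in the control pool (-0.08), and Cyp2c70, which makes muricholic acids in mice, read 4886.8 and 4941.9 (-0.02). Cyp2c23, another epoxygenase gene, stood at -0.31, with 2109.0 in the squalene pool and 2619.1 in the control pool. Cyp2c37 passed the median in the squalene pool alone, at 49.4 against 30.9 (0.68), and stood at 0.31 once signals were floored at the median.

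Cyp2c29, Cyp2c39 and Cyp2c38 follow each other on chromosome 19 among the genes read here, and their upstream sequences are shown because ratios of close relatives differed. Windows of 250 bases are given as above, with TATAAA in capitals. Cyp2c29 is at chr19:39286835-39287084, plus strand, Cyp2c38 at chr19:39463076-39463325, minus strand, and Cyp2c39 at chr19:39347096-39347345, plus strand, the first of its 2 listed starts. The window of the second start, chr19:39510572-39510821, plus strand, lies beyond that of Cyp2c38, so the order of these genes depends on the start taken.
Cyp2c29: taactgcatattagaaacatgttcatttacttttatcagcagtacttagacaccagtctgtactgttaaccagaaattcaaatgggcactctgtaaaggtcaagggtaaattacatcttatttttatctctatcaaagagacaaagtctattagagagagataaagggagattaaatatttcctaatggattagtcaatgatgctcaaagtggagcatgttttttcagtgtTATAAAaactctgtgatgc
Cyp2c38: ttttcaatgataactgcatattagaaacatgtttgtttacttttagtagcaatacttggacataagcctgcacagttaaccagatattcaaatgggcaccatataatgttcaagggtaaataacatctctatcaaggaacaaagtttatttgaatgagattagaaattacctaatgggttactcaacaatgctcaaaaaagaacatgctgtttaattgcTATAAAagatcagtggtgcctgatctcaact
Cyp2c39: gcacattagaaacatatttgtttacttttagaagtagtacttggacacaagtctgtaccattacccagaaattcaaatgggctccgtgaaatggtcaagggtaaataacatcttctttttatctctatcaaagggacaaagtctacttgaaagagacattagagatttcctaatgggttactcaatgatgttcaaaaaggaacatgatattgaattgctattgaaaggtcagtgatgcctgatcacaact
Identity was 75.8% between Cyp2c38 and this Cyp2c39 start, 74.1% between Cyp2c29 and that start, and 68.8% between Cyp2c29 and Cyp2c38. For the second Cyp2c39 start it was 71.0% with Cyp2c38 and 68.1% with Cyp2c29. TATAAA on the gene strand begins 19 bases before the listed start in Cyp2c29 and 31 in Cyp2c38, and the window of neither Cyp2c39 start holds those letters. It occurs in 11 of the 39 P450 genes with a promoter (28.2%) and in 8.94% of all 27025 genes with one. The window of the second Cyp2c39 start ends in tat, so a match running past its end would be missed. Cyp2c38, with TATAAA in its window, and Cyp2c39, with none in either window, both had a higher signal with squalene.

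All 5 well-read Cyp2d genes read lower with squalene, beside 3149 of all 6459 well-read genes with a ratio below 0. Their log2 ratios, Cyp2d13 included, ran from -0.86 to -0.08 with a median of -0.17. Cyp2d9, a male-biased testosterone hydroxylase, read 8696.4 in the squalene pool and 9791.5 in the control pool (-0.17). Cyp2d10 read 7552.1 and 8727.5 in that order (-0.21), and Cyp2d26 read 5171.6 and 5461.8 (-0.08). Apart from Cyp2d13, all are smaller in size than the spike-in offset, so that scaling to the spike-ins would put them above 0. Cyp2d12 and Cyp2d34 had ratios of 1.89 and 2.51 but signals of only 23.0 and 15.9 in the squalene pool and 6.2 and 2.8 in the control pool.

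Of the remaining Cyp2 genes, Cyp2e1, which oxidises ethanol and acetaminophen, read 13750.1 in the squalene pool and 15776.9 in the control pool (-0.20). Cyp2j9 read 168.7 and 119.4 in the same order, just under the limit at 0.50, and Cyp2j6 read 99.7 and 125.3 (-0.33). With Cyp2j5 at 0.25 between them, the Cyp2j genes showed no common direction. Cyp2g1, known from olfactory mucosa, passed the median in the squalene pool alone, at 50.9 against 25.9 (0.97).

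In family 3 the principal PXR target of mouse liver, Cyp3a11, read 12635.5 in the squalene pool and 14184.9 in the control pool (-0.17). Cyp3a25 read 9834.1 and 10006.8 in that order (-0.03). Cyp3a13, which lies apart from the other Cyp3a genes on chromosome 5, was 1.68-fold higher with squalene, reading 1646.6 in that pool and 980.5 in the control pool (0.75), and 164 of 6459 well-read genes had a higher ratio. It rests on a single probe set with the plain suffix. Cyp3a44, a female-biased gene, read 81.7 in the squalene pool and 29.9 in the control pool, below the median there (1.45), or 1.03 with signals floored at the median. A probe set for Cyp3a41a and Cyp3a41b, also female-biased and outside the rule, read 351.3 in the squalene pool and 150.1 in the control pool (1.23). Of the 3 well-read genes of family 3, 1 lay above 0, beside 51.2% of all well-read genes, and their median was -0.03. Cyp3a44 is not among them, as it passed the filter through the squalene pool alone.

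**Figure D3:**
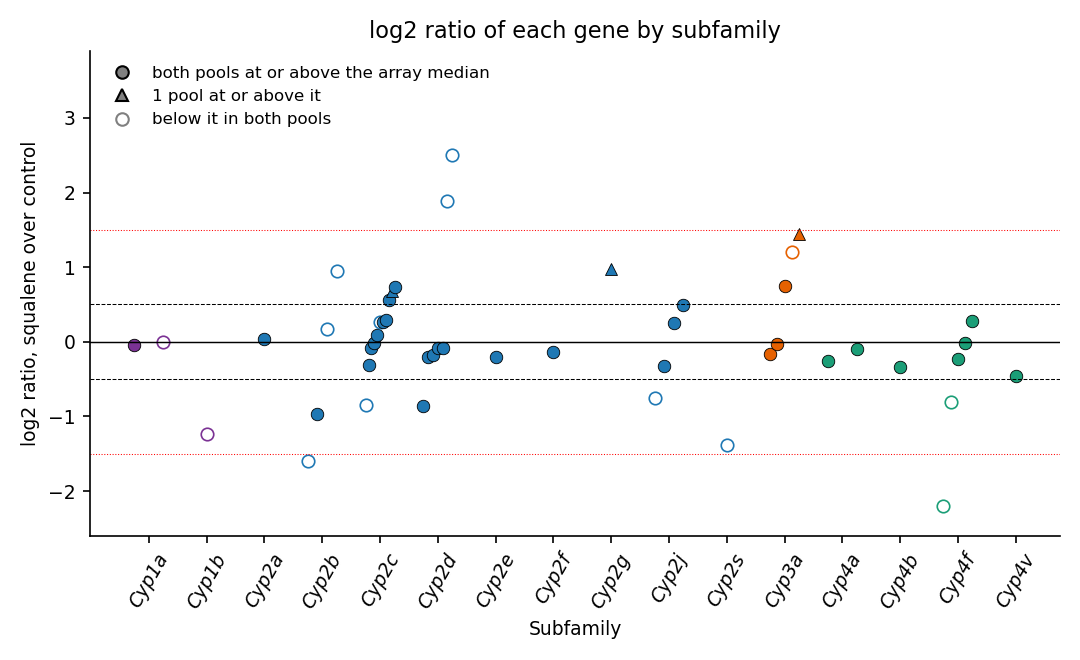
log2 ratio of squalene over control (vertical) for each of the 48 P450 genes by subfamily, filled where measured and open where both signals lie below the array median. Dashed lines mark 0.5 and dotted lines 1.5 in either direction. The measured genes lie between -0.96 and 1.45, and the ratios beyond 1.5 all belong to open symbols.

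Family 4 read near 0 or slightly lower with squalene. Cyp4a14, a fatty acid hydroxylase and PPAR alpha target, read 3550.1 in the squalene pool and 4235.8 in the control pool (-0.25). A probe set shared by Cyp4a10 and Cyp4a31, of the same kind, read 9731.3 and 9993.7 in that order (-0.04), and the probe set of Cyp4a31 alone 45.8 and 49.2 (-0.10). The male-biased Cyp4a12a, whose symbol lies outside the rule, read 2748.0 in the squalene pool and 2467.8 in the control pool (0.16). Cyp4b1, known from lung, stood at -0.34 with 120.5 and 152.0. Of the Cyp4f genes, whose enzymes hydroxylate leukotrienes and fatty acids, Cyp4f13 read 271.3 and 223.4 (0.28) and Cyp4f15 1041.0 and 1057.7 (-0.02). The 7 well-read genes of family 4 had a median of -0.24, which spike-in scaling would turn positive.

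Family 1 was represented by a single measured gene. Cyp1a2, an aryl hydrocarbon receptor target that oxidises caffeine and aromatic amines, read 2872.8 in the squalene pool and 2948.2 in the control pool (-0.04). Cyp1a1, the most inducible gene of that receptor, read 21.7 and 21.8, below the median in both. Cyp1b1, found mostly outside hepatocytes, read 9.3 in the squalene pool and 21.9 in the control pool on its brightest probe set, and its other probe sets gave ratios of 3.74 and -1.87.

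The 14 genes below the median in both pools were Cyp1a1, Cyp1b1, Cyp2b9, Cyp2b13, Cyp2b19, Cyp2c55, Cyp2c65, Cyp2d12, Cyp2d34, Cyp2j13, Cyp2s1, Cyp3a16, Cyp4f16 and Cyp4f18. Their signals ran from 2.4 to 34.2 in the squalene pool and from 1.3 to 35.8 in the control pool. Ratios spread from -2.20 for Cyp4f16 to 2.51 for Cyp2d34, and 11 of the 14 lay beyond 0.5 in either direction. A second Cyp4f16 probe set gave 0.62, and a probe set shared by Cyp4f16 and Cyp4f37 gave -0.18. At such signals no direction could be read.

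**Figure D4:**
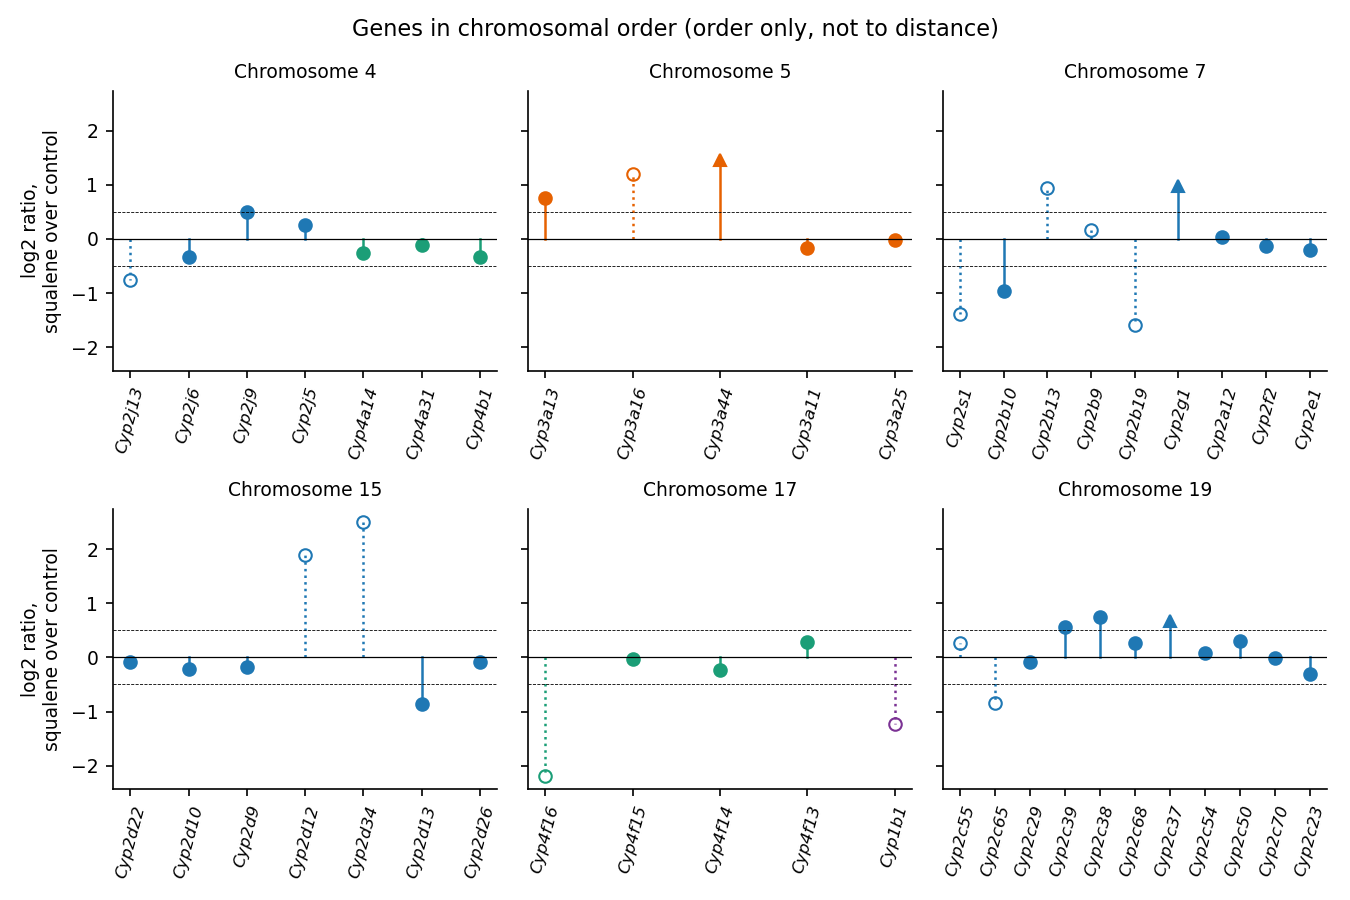
log2 ratio of squalene over control (vertical) for P450 genes in their order along 6 chromosomes, spaced evenly, with open symbols for genes below the median in both pools and triangles for genes above it in the squalene pool alone. Cyp2b10 on chromosome 7 and Cyp2d13 on chromosome 15 stand apart from well-read neighbours nearer 0.

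Genes that serve or control P450 enzymes mostly differed little. Of 8 well-read partners 1 was higher and 1 lower beyond 0.5, beside 7.85% and 6.35% of all well-read genes. Fmo5, a flavin monooxygenase, was higher (2647.9 in the squalene pool, 1851.0 in the control pool, log2 ratio 0.52). Ephx1, the microsomal epoxide hydrolase and like Cyp2b10 inducible by phenobarbital, was lower (2787.7 and 4011.9, -0.53). Alas1, the rate-limiting enzyme of heme synthesis, stood at 0.37 and Cyb5a, cytochrome b5, at -0.13. The receptors read 722.7 and 792.6 for Nr1i3, which encodes CAR (-0.13), and 169.5 and 177.5 for Nr1i2, which encodes PXR (-0.07), squalene pool first in each. Ahr stood at 0.35 and Ppara at 0.36. Of 13 well-read receptors and regulators none was higher beyond 0.5 and 1 was lower, Rxrb (-0.79). Onecut1 read 4.5 in the squalene pool, below the median, and 59.0 in the control pool.

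Other targets of these receptors, chosen as lists outside the family, are set beside the P450 genes. Of 11 well-read CAR and PXR targets 9 lay above 0, beside 51.2% of all well-read genes, with a median of 0.12. Only Gstm3, a glutathione transferase gene, lay beyond 0.5, at 0.54. The well-read Cyp2b and Cyp3a genes, outside this list, were Cyp2b10 (-0.96), Cyp3a11 (-0.17), Cyp3a25 (-0.03) and Cyp3a13 (0.75). The probe set shared by Cyp3a41a and Cyp3a41b stood at 1.23. Whether these P450 genes differ from the list was not tested. Among 10 well-read PPAR alpha targets 0 were higher and 4 lower beyond 0.5, beside 7.85% and 6.35% of all well-read genes, and the median was -0.36. Acot1 (-1.09), Plin2 (-0.78), Ehhadh (-0.67) and Acaa1b (-0.58) were the 4, while Cyp4a14 stood at -0.25. Of 7 aryl hydrocarbon receptor targets listed 3 were well read, and all 3 lay above 0, beside 51.2% of all well-read genes. Nqo1, a quinone reductase gene, had the largest ratio of them (0.71). It read 72.8 in the squalene pool and 44.6 in the control pool, near the array median there.

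P450 genes of other families, several of them in bile acid and sterol synthesis, lay on both sides of 0. Of 7 well-read ones 3 were higher beyond 0.5 and 0 lower, beside 7.85% and 6.35% of all well-read genes, with a median of 0.35. Higher were Cyp7a1, which starts the classic bile acid pathway (1.39), the oxysterol hydroxylase gene Cyp39a1 (0.88) and the sterol demethylase gene Cyp51 (0.50, just past the limit). Other bile acid genes stood at 0.28 for Cyp27a1, -0.09 for Cyp7b1 and -0.34 for Cyp8b1, and Cyp26a1, which degrades retinoic acid, at 0.35. The steroid hydroxylase gene Cyp17a1 read 97.4 in the squalene pool and 25.9 in the control pool, and Tbxas1, thromboxane synthase, 43.4 and 6.0, both below the median in the control pool. Whether these genes differ from families 1 to 4 was not tested.

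Zonation and sex-biased lists were also read, since many P450 genes follow them. Pericentral genes had a median of -0.09 over 11, with Slc1a2 (0.71) the one beyond 0.5, and periportal genes 0.02 over 7, with none beyond it. Slc1a2 read 69.1 in the squalene pool and 42.3 in the control pool, near the array median there. Of 12 male-biased genes listed 5 were not named on the array. The other 7 were well read and all lay below 0, beside 3149 of all 6459 well-read genes. Their median was -0.37, led by Elovl3 (-1.24) and Hsd3b5 (-0.70). The male-biased P450 genes Cyp2d9 and Cyp4a12a stood at -0.17 and 0.16. Of 12 female-biased genes listed 4 were well read, and 3 of the 4 lay above 0, beside 51.2% of all well-read genes. The median of the 4 was 0.10, with Fmo2 at 1.21 and Acot3 at -0.49. Sult1e1, an estrogen sulfotransferase, read 97.4 in the squalene pool and 24.6 in the control pool, below the median there. With spike-in scaling the male-biased genes with ratios between -0.26 and 0 would lie above 0.

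Some markers of other liver cells were lower with squalene. All 7 well-read macrophage and Kupffer cell markers lay below 0, beside 3149 of all 6459 well-read genes. Of the 7 markers 4 were lower beyond 0.5, beside 6.35% of all well-read genes, and the median of the 7 was -0.56. With spike-in scaling only Adgre1 (-0.08) of the 7 would lie above 0. The summed signal of all 8 was 3530.0 in the squalene pool and 5392.4 in the control pool. Of 6 stellate cell markers 3 were well read. These, Acta2, Pdgfrb and Col3a1, were all lower beyond 0.5, beside 6.35% of all well-read genes, with a median of -0.70. The others, Col1a1 (-1.65), Des (0.51) and Lrat (1.95), lay below the array median in both pools and had ratios of both signs. Of 7 well-read endothelial markers 1 was lower beyond 0.5, 2 lay above 0 and the median was -0.17, which spike-in scaling would turn positive. The 8 hepatocyte markers summed to 88194.0 in the squalene pool and 90673.5 in the control pool, with a median ratio of -0.04. The part of cell composition in the ratios of P450 genes was not tested. In bulk RNA, fewer cells of a type and less RNA per cell cannot be told apart.

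**Figure D5:**
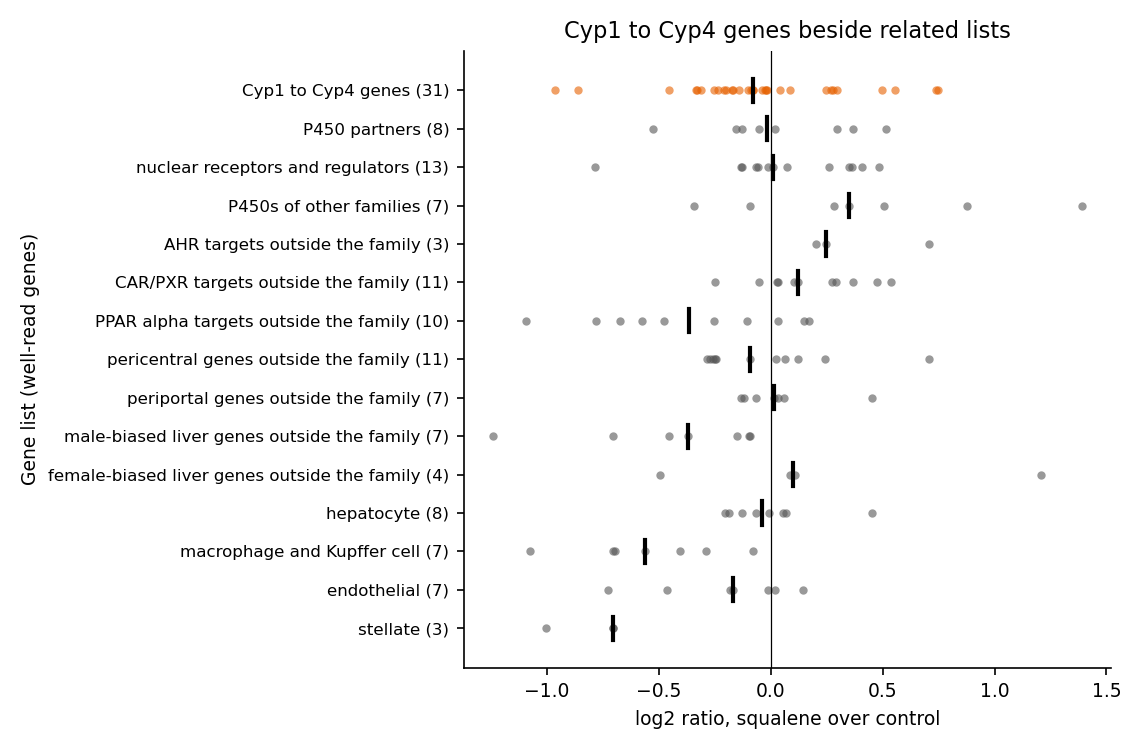
log2 ratio of squalene over control (horizontal) for each well-read gene of the P450 family, of 10 related lists and of 4 marker lists, with the number of genes in brackets and a bar at each median. Medians run from -0.70 for the stellate cell markers to 0.35 for P450 genes of other families, and that of Cyp1 to Cyp4 genes is -0.08.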

How the data were processed

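Liver RNA of 1 squalene pool and 1 control pool was read on 2 mouse arrays. The authors deposited linear intensities, 1 per probe set. MAS5 made them, per the submitters' processing notes. The 2%-trimmed mean was 200.1 on each array, as seen in the values. The sources used here give no software version or scanner settings. With 1 array per group the number of arrays limits the precision and no p-value was computed.

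Of 22690 probe sets, 64 array controls were left out. A single gene symbol was given for 20380, several for 691 and none for 1555. All 48 P450 genes matched RefSeq by Entrez number with an unchanged symbol. Of them, 41 had 1 probe set and 7 had several. Of the 31 well-read genes, 6 rest on probe sets with a suffix for probes shared between transcripts. No genome build is named for the arrays. RefSeq (GRCm38.p6) served for gene order and promoter sequences, which 39 of the 48 genes had.

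Each gene was represented by its brightest probe set by mean log2 signal, and log2 ratios of squalene over control were taken with no pseudocount. Genes were called higher or lower beyond 0.5. Named genes were all well-read members, those past 1.5, the members below the filter, and up to 4 well-read genes beyond 0.5 from each related list, to which a few were added after their values were seen. The members, lists and limits were chosen with earlier results of these data known. The steps were tested on simulated data.

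The alternatives were other filters, floored signals, centring, spike-in scaling, quantile normalization, loess (limma 3.58.1, R 4.3.3), a pseudocount of 3.0 (the 10th percentile of the signals), other choices of probe set and limits of 0.3, 1.0 and 1.5. Python 3.11.15 with numpy 2.4.6, pandas 2.3.3, biopython 1.88 and matplotlib 3.10.9 was used.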

Additional observations from a re-analysis of the deposited data

How the results depend on the processing

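With 34 measured P450 genes, 6 were higher and 2 lower beyond 0.5, 3 of the 6 through the squalene pool alone. The count of higher genes was 10 with no filter, 3 with a filter at percentile 75, 3 over well-read genes alone, and 11 with spike-in scaling. At a limit of 1.0 it was 1 and at 1.5 it was 0. The count of lower genes was 9 with no filter, 6 at a limit of 0.3, and 0 at limits of 1.0 and 1.5. Spike-in scaling gave 11 higher and 2 lower P450 genes, and 25.7% higher and 5.26% lower of all measured genes, whose median was then 0.26. With no filter, subfamily medians were -0.40 for Cyp2b against -0.96 with the filter, -0.041 for Cyp2j against 0.25, and 0.75 for Cyp3a against 0.36, because genes below the array median were then included. Over well-read genes alone, added after the values were seen, the Cyp3a median was -0.025, without Cyp3a44, which passed through the squalene pool alone. In the brightest tertile of mean signal, also added later, 3 well-read genes were higher and 2 lower. Of 142 single-gene settings 138 lay within 0.27 of the value reported and 4 beyond, and 0 changed sign among genes beyond 0.5. Many of these outcomes were fixed in advance. Spike-in scaling shifts every ratio by 0.26, which is within 0.27, and flooring at the median cannot change a well-read gene. The count is thus no measure of stability for those settings. No paired analysis was possible because each group holds 1 pool. Leaving out a replicate could not be done for the same reason.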
